A study of Mus musculus with 6 samples.

Results

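Cytosolic ribosomal protein genes were examined in sorted telencephalic cells of mouse embryos with and without a floxed allele of Magoh, a core component of the exon junction complex. Members were the rows of the deposited normalized table whose gene name is Rpl or Rps with a number (and the usual suffixes), or is Rpsa, Rplp0, Rplp1 or Rplp2. This gave 84 of 18065 genes, and all 84 passed the filter on low counts and were tested. They are 46 proteins of the large subunit, 31 proteins of the small subunit, 4 paralogs (Rpl22l1, Rpl7l1, Rpl36al and Rps27l) and 3 copies annotated as processed pseudogenes (Rps3a2, Rps3a3 and Rps12l1). The 77 subunit genes are called core genes here. Fau, which encodes a ribosomal protein fused to a ubiquitin-like domain, does not match the name rule and was left out.

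The Magoh heterozygous group was Magoh lox/+; Nkx2.1-Cre; ROSAloxSTOPloxTdTomato (het, n = 2), and the control group was Nkx2.1-Cre; ROSAloxSTOPloxTdTomato (n = 4). All 6 samples are C57BL/6 embryos of day E11.5. Cre under Nkx2.1 control recombines in the ventral telencephalon, including the medial ganglionic eminence where cortical interneurons arise, so that only cells in which Cre has acted carry the deletion and the red reporter. Controls carry the same Cre and reporter. Cells positive for tdTomato were sorted, and polyadenylated RNA was sequenced in bulk. The labels do not say whether replicates are separate embryos or pools, so every p-value measures only the spread between these samples.

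Nearly all ribosomal proteins are present in equal numbers in each ribosome, and cells make them in matched amounts. Their mRNAs are short, abundant and stable, and most start with a pyrimidine tract, the 5′ TOP element, through which mTOR signalling sets their translation. Several ribosomal proteins, Rpl5 and Rpl11 among them, bind the ubiquitin ligase Mdm2 when ribosome assembly is disturbed, which raises p53.

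Total counts were between 37429290 and 49189360 per library, so counting error is small for every core gene. Levels are CPM, counts scaled to library size, with TMM factors. Magoh itself had 57.1 and 48.6 CPM in het 1 and het 2, against 68.1, 118, 63.6 and 74.3 CPM in controls 1 to 4. Both hets were thus below every control, as they were for 8.14% of all genes. The log2 fold change of Magoh was -0.62 ± 0.27 (SE; edgeR quasi-likelihood test, Benjamini-Hochberg adjusted p = 0.85). 2 libraries stood apart from the other 4. Het 1 and control 2 had 0 reads on 4 Y-linked genes and Xist levels of 111 and 94.2 CPM, whereas in the remaining libraries these genes had 3453 to 4291 reads and Xist did not exceed 0.549 CPM. No label states the sex of the embryos. In both libraries, genes with long exonic sequence were low relative to short genes, and mitochondrially encoded genes took 3.16% of counts in het 1 and 3.51% in control 2, against 1.43% in het 2 and 1.98% to 2.56% in controls 1, 3 and 4. All 10 markers of the medial ganglionic eminence were detected, with summed levels of 1444 and 2564 CPM in het 1 and het 2 and 922 to 1793 CPM in controls.

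The start of a TOP mRNA is where its shared control element lies, so the sequence around the transcription start is shown for members with a long pyrimidine run, and for some with none. The sequences come from the RefSeq table of build GRCm38.p6, in which 61 members have an entry. For 52 members the RefSeq start lay within 100 bases of the start of the coding transcript chosen from GENCODE M21. Each line holds 30 bases, 15 before the start and 15 from it, with the longest run of C and T that touches the 5 bases on either side of the start in capitals.
Rpl7a (chr2:26910792-26910821, plus strand): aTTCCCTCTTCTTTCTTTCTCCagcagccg
Rpl15 (chr14:18270972-18271001, minus strand): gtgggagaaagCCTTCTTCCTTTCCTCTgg
Rpl19 (chr11:98026909-98026938, plus strand): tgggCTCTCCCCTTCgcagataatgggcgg
Rps18 (chr17:33955651-33955680, minus strand): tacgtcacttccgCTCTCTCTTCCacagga
Rps27 (chr3:90213634-90213663, minus strand): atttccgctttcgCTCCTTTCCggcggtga
Rps27l (chr9:66946071-66946100, plus strand): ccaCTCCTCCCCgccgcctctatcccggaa
Rpl22l1 (chr3:28805493-28805522, plus strand): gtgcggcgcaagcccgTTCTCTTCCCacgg
Rpl36al (chr12:69184053-69184082, minus strand): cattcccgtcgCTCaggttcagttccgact
Rpl7l1 (chr17:46782642-46782671, minus strand): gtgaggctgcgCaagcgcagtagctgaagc

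The runs are 21 bases in Rpl7a, 17 in Rpl15, 11 in Rpl19 and Rps18, 10 in Rpl22l1, and 9 in both Rps27 and its paralog Rps27l. Those of Rpl7a, Rpl15, Rps18 and Rps27 include the first base of the RefSeq transcript. Those of Rpl19 and Rps27l end before it, and that of Rpl22l1 begins after it. The start of the chosen GENCODE transcript was 43 bases away in Rpl7a, 16 in Rpl15, 12 in Rps18, 3 in Rps27 and 72 in Rpl22l1. Rpl36al and Rpl7l1 have runs of 3 bases and 1 base. Such a run of at least 8 bases was present in 17 of the 52 members (32.7%), against 1209 of 13411 coding genes with a matched start (9.01%). These 13411 genes, called all genes in this paragraph, were not filtered by expression and include the members. A C stood at the start itself in 32.7% of members and 13.8% of all genes. In the 300 bases from 250 before to 50 after the start, read on both strands, CCGGAAG, the core bound by ETS factors, occurred in 36.5% of members and 12.8% of all genes. AANATGGC, a core bound by YY1, occurred in 21.2% and 6.9%. GGGCGG, bound by Sp1, occurred in 63.5% and 48.3%. TATAAA occurred in 9.62% and 13.7%, and CACGTG, the E-box of Myc, in 9.62% and 8.21%. Each motif was counted apart from the others and may overlap them, and these matches are descriptions of the letters in the window.

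Ribosomal protein mRNAs were among the most abundant messages of the sorted cells. By control mean, 12 members were among the 100 genes with the highest CPM and 68 among the highest 500. The core genes code for short proteins, with coding lengths of 75 to 1257 nt and a median of 454.5 nt, against a median of 1404 nt in the 13972 other coding genes tested. Per kilobase of mRNA, the median control level of the core genes was 769 CPM per kb. The highest levels per kilobase in controls were 2247 CPM per kb for Rplp1 and 1764 for Rplp2, the acidic proteins of the stalk that recruits translation factors. Rps2, a protein near the mRNA entry channel, had 1746 CPM per kb. Rpl41, the core gene with the shortest coding length, had 1701, and Rps28 had 1606. The lowest were the 4 paralogs, with 74.02 CPM per kb for Rpl22l1, 95.9 for Rps27l, 98.2 for Rpl7l1 and 120 for Rpl36al. The lowest core gene per kilobase was Rps20, at 168 CPM per kb of an annotated mRNA of 3706 nt. The row named Rpl24 carries an identifier that GENCODE M21 assigns to Zbtb11, so its mRNA and coding lengths were not used. The removal of a length and GC trend, below, still used the exonic length and GC of that identifier. Rpl24 was counted among the autosomal core genes.

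Members made up 6.06% and 4.72% of counts in het 1 and het 2, against 4.30%, 7.01%, 4.25% and 4.97% in controls 1 to 4. The groups overlapped: het 2 lay inside the control range, and het 1 lay below control 2 and above the other controls. The group means were 5.39% ± 0.953 in hets (SD, n = 2) and 5.13% ± 1.29 in controls (SD, n = 4), a difference of 0.259 percentage points that is smaller than either SD. The 95% Wilson intervals of the single libraries were at most ± 0.00818 percentage points wide, which covers counting error only. Large-subunit genes had 1.25 and 1.33 times the counts of small-subunit genes in het 1 and het 2, against 1.33, 1.21, 1.35 and 1.31 times in controls 1 to 4. The ratio was lowest in the 2 libraries with the highest share.

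**Figure D1:**
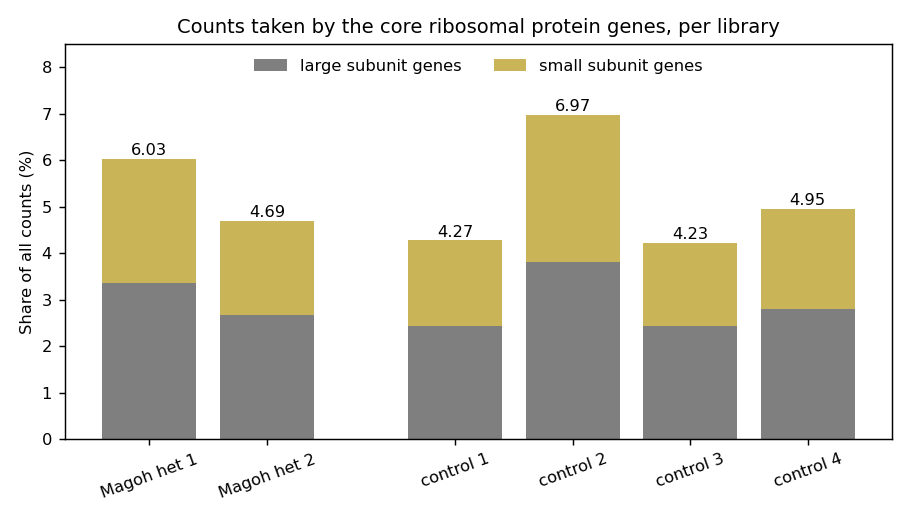
Share of all counts (%) taken by the 77 core genes in each library, split into large-subunit and small-subunit genes, hets left of controls. Het 1 (6.03%) and control 2 (6.97%) are the highest, and the other 4 libraries lie between 4.225% and 4.95%.

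The comparison of genotypes asks whether loss of 1 Magoh copy goes with a change in these mRNAs. No member differed between hets and controls by edgeR's quasi-likelihood test (adjusted p under 0.05), in a comparison in which 0 of 16495 genes did (0% of genes). Of the 84 members, 0 had an unadjusted p under 0.05, against 5.72% of all genes (1.75% higher and 3.98% lower), and the smallest member p was 0.280 (adjusted p = 0.987). DESeq2 and limma-voom called 0 members, beside 0.358% and 0% of all genes. Fold changes were small: 67 of 84 members lay above 0, compared with 46.1% of all genes, with a median log2 fold change of 0.04 in members and -0.03 in all genes. The members' median standard error was 0.28, larger than the median change. Members move together across libraries, so counts over them are not counts of independent observations. In bulk RNA, fewer cells of a type and less RNA per cell cannot be told apart.

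The sign of the members' median depended on single libraries. Without control 2 it was 0.28, with 82 of 84 members above 0 (all genes, 49.6%). By edgeR, 7 members then had an unadjusted p under 0.05 (all genes, 15.5%) and 0 an adjusted p under 0.05. Rpl13a, Rpl23a, Rps10, Rps19 and Rps27l were among those 7. Without het 1 the median was -0.15, with 75 members below 0 (all genes, 55.8%). It was -0.03 without control 1, -0.05 without control 3, 0.0050 without control 4 and 0.21 without het 2. Without control 2 and het 1 together it was 0.09, with 72 members above 0 (all genes, 46.2%). A single member, Rpl22l1, then had an unadjusted p under 0.05 (all genes, 17.8%), with a log2 fold change of -0.50 ± 0.20 (SE) and an edgeR unadjusted p of 0.0379. Where a single het remains, its spread is taken to be that of the controls.

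**Figure D2:**
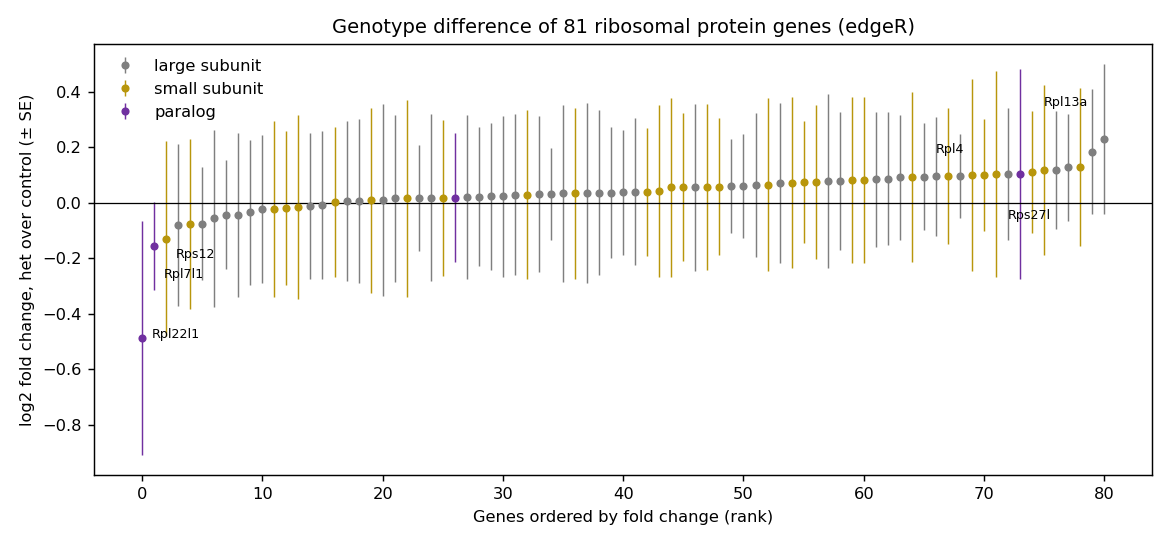
Log2 fold change of het over control with its standard error (edgeR) for members other than the 3 pseudogene copies, ordered by value and coloured by class. The points run from -0.49 for Rpl22l1 to 0.23 for Rpl13a, and only the bar of Rpl22l1 does not cross 0.

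Among proteins of the large subunit, Rpl13a, which is also part of a complex that blocks translation of inflammatory mRNAs, had the highest fold change. It was at 1372 and 1000 CPM in hets 1 and 2, against 829, 1438, 821 and 960 CPM in controls 1 to 4. Both hets lay between controls, below control 2 and above the other 3 (log2 fold change 0.23 ± 0.27, SE; edgeR adjusted p = 0.999). Rpl23a, at the exit of the protein tunnel, had 783 and 744 CPM in hets, against 648, 879, 611 and 658 CPM in controls. In both of these genes control 2 was the highest library and het 1 the second. Rpl4, which lines the exit tunnel, was the exception: it had 1050 and 1107 CPM in hets, against 947, 1012, 1037 and 1037 CPM in controls. It was the single member with both hets above every control (1 of 84, against 6.17% of all genes), and 0 members had both hets below every control (8.14% of all genes). Its log2 fold change was 0.10 ± 0.15 (SE; edgeR adjusted p = 0.999).

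Rplp0, Rplp1 and Rplp2, which form the stalk, had the same order of libraries at the top, with control 2 first and het 1 next. Rplp0 had 2434 and 1796 CPM in hets, against 1659, 2910, 1538 and 1945 CPM in controls. Rplp1 had 1310 and 960 CPM in hets, against 906, 1683, 867 and 1030 CPM in controls. Rplp2 had 857 and 644 CPM in hets, against 630, 1124, 556 and 660 CPM in controls. In all 3 genes het 2 fell within the range of controls 1, 3 and 4, and the fold changes lay between 0.02 and 0.07 on the log2 scale.

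Rpl5 and Rpl11, which hold Mdm2 when free of the ribosome, had log2 fold changes of 0.12 ± 0.21 and 0.09 ± 0.21. Rpl5 had 833 and 696 CPM in hets, against 599, 904, 618 and 697 CPM in controls. Rpl11 had 721 and 602 CPM in hets, against 540, 802, 541 and 595 CPM in controls. Rpl26, Rpl23 and Rps7, which also act on Mdm2 or p53, had fold changes of 0.03, 0.04 and 0.03. Over the 14 ribosomal proteins known to act on p53, 12 lay above 0 with a median of 0.04, and 0 passed the test. Of p53 targets outside the ribosome, Mdm2 had 87.3 and 87.4 CPM in hets, against 69.3, 71.1, 68.0 and 58.4 CPM in controls, and the cell cycle inhibitor Cdkn1a had 16.9 and 28.3 CPM in hets, against 4.64, 4.42, 10.7 and 4.50 CPM in controls. Both hets were above every control for both genes, as they were for 6.17% of all genes. The edgeR adjusted p was 0.85 for Mdm2 and 0.793 for Cdkn1a.

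The median log2 fold change was 0.06 over the 31 small-subunit genes, with 26 above 0, and 0.03 over the 46 large-subunit genes, with 37 above 0. Rps19, the gene most often mutated in Diamond-Blackfan anaemia, had 463 and 372 CPM in hets, against 322, 601, 296 and 357 CPM in controls (log2 fold change 0.08 ± 0.30). Rpsa, which is also known as a laminin receptor, had the highest control mean CPM of all members, with 2553 and 2035 CPM in hets against 1823, 2938, 1812 and 2019 CPM in controls. Rps6, the target of S6 kinase, had 910 and 780 CPM in hets, against 674, 1029, 670 and 757 CPM in controls. Rps12 had the lowest fold change among the core genes, -0.13 ± 0.35, at 740 and 509 CPM in hets against 507, 1102, 520 and 601 CPM in controls. All of these groups overlapped. Of 18 genes mutated in Diamond-Blackfan anaemia, 15 lay above 0, with a median of 0.06, and 0 passed the test.

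The members on the X chromosome are Rpl10, Rpl36a, Rpl39 and Rps4x. Rps4x had 1040 and 939 CPM in hets, against 819, 1232, 782 and 925 CPM in controls. Rpl10, which joins the large subunit in the last steps of its assembly, had 777 and 555 CPM in hets, against 527, 959, 518 and 606 CPM in controls. The median excess of control 2 over controls 1, 3 and 4 was 0.79 on the log2 scale for these 4 genes and 0.78 for the 73 autosomal core genes. For het 1 the same medians were 0.38 and 0.44.

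The variation among members was mostly shared. Their level relative to the mean of the controls had a median of 0.24 in het 1 and -0.11 in het 2, against -0.21, 0.58, -0.30 and -0.06 in controls 1 to 4 (log2 scale). Control 2 was the highest of the 6 libraries for 83 of 84 members, against 27.2% of all genes, and Rpl4 was highest in het 2. Het 1 was the second highest for 76 of 77 core genes. The control spread of the core genes, an SD of log2 CPM with a median of 0.41, was wider than the median of 0.29 over all genes. It ran from 0.06 for Rpl4 to 0.57 for Rps14. Compared with the mean of controls 1, 3 and 4, control 2 was higher by a median of 0.78 over the core genes, with a range of 0.01 for Rpl4 to 1.05 for Rps14. Het 1 was higher by a median of 0.44, with a range of 0.06 to 0.73, and het 2 by 0.09. Het 2 was above that mean for 69 of 84 members, against 46.9% of all genes. Set against control 2, het 1 was lower for 83 of 84 members, with a median difference of -0.31 on the log2 scale, where 50.4% of all genes were lower. Het 2 lay within the range of controls 1, 3 and 4 for 56 of 77 core genes, above it for 21 and below it for 0.

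**Figure D3:**
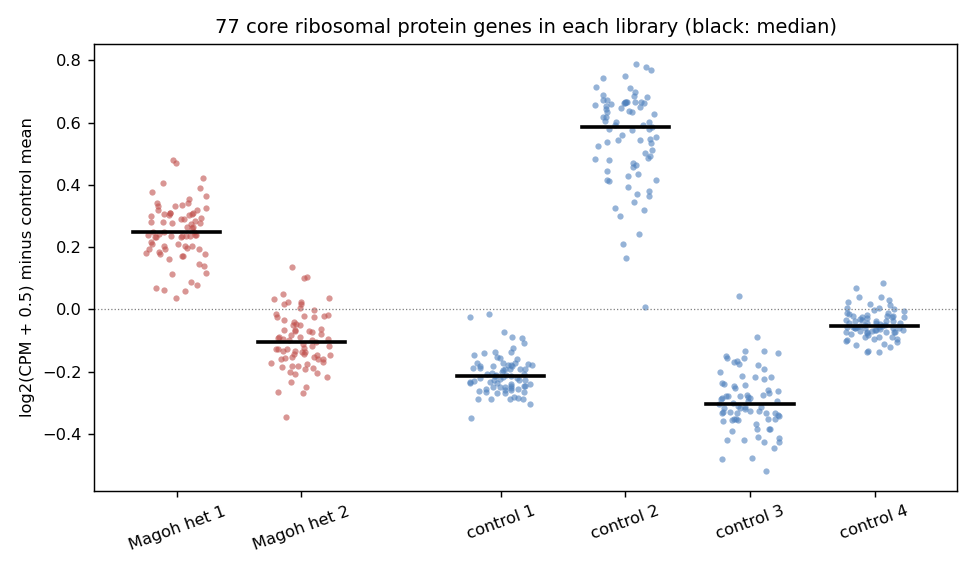
Level of each of the 77 core genes, log2(CPM + 0.5), minus the mean of the controls, by library, hets left of controls; black bars are medians. The core medians are 0.25 in het 1 and 0.59 in control 2, and between -0.30 and -0.05 in the other 4 libraries.

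Values that move with this ordering are the 0 Y-linked reads, the high Xist levels and the high mitochondrial shares of het 1 and control 2, and their low level of long genes. Genes with exonic lengths of 8000 bases or more, relative to those under 1000 bases, were at -0.30 in het 1 and 0.07 in het 2, against 0.21, -0.58, 0.29 and 0.11 in controls 1 to 4 (log2 scale). Progenitor markers (10 of 10 detected) summed to 4116 and 4997 CPM in het 1 and het 2 and 4054 to 6573 CPM in controls, with het 1 and control 2 the lowest. Neuron markers (10 of 10) summed to 3198 and 3765 CPM in hets and 1775 to 2618 CPM in controls, with both hets above every control. Red cell markers (7 in the file) summed to 362 and 0.610 CPM in hets and 29.6 to 133 CPM in controls. Microglia markers (6 in the file) summed to 9.90 and 0 CPM in hets and 1.75 to 80.6 CPM in controls. The part of any of these in the level of ribosomal protein mRNAs was not tested.

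The excess of het 1 and control 2 was larger in core genes with coding lengths under 600 nt than in longer ones, and among other genes it was larger the shorter the length range. For the 45 core genes with coding lengths of 300 to 600 nt, the median log2 excess over controls 1, 3 and 4 was 0.47 in het 1 and 0.83 in control 2. For 1487 other coding genes of the same length, it was 0.26 and 0.43. For coding lengths of 600 to 900 nt it was 0.38 and 0.61 in 19 core genes, against 0.18 and 0.27 in 1896 other genes. In the 3 core genes of 900 to 1500 nt it was 0.17 and 0.44, against 0.05 and 0.10 in 3896 other genes. In 9 core genes under 300 nt it was 0.41 and 0.88, against 0.33 and 0.61 in 256 other genes. In other genes of 1500 nt or more it was -0.25 and -0.38. Other genes of at least 100 CPM had medians of 0.43 in het 1 and 0.62 in control 2 under 300 nt (36 genes), 0.32 and 0.54 from 300 to 600 nt (200 genes), 0.23 and 0.37 from 600 to 900 nt (241 genes), and 0.11 and 0.16 from 900 to 1500 nt (521 genes). The core median was above that of all other genes, and of those of at least 100 CPM, in each of the 4 length ranges in both libraries, except under 300 nt in het 1, where it was below the median of the other genes of at least 100 CPM. Across 76 core genes, the excess of control 2 had a Pearson r of -0.50 and a Spearman rho of -0.55 with log2 coding length. The excess of het 1 had r = -0.24 and rho = -0.22. The 2 excesses went together gene by gene (r = 0.83, rho = 0.77), and they share the same 3 controls as their baseline. These are descriptions across genes, which are not independent replicates.

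**Figure D4:**
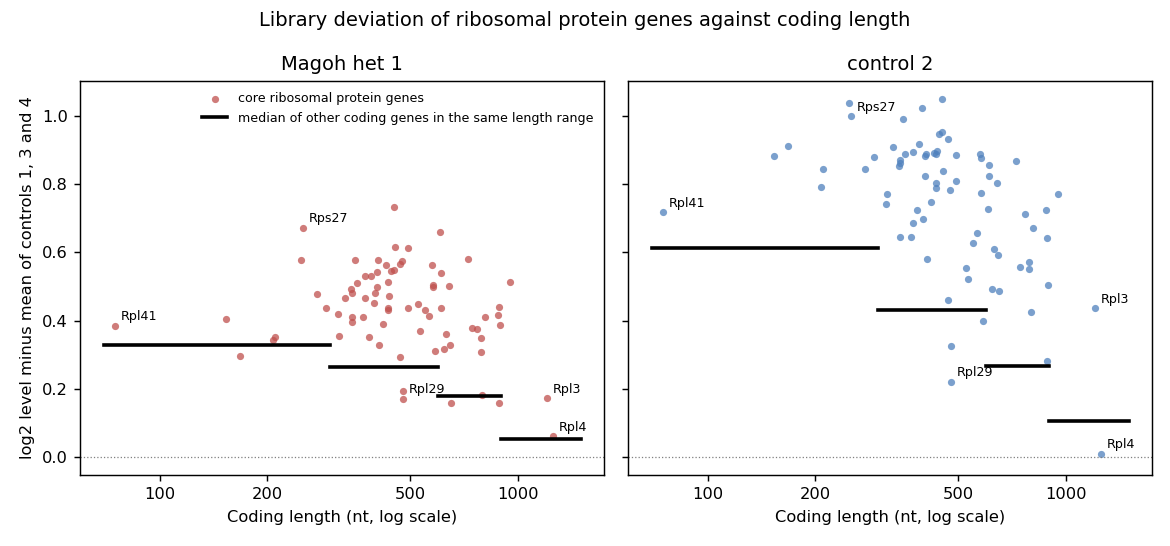
Log2 level minus the mean of controls 1, 3 and 4 against coding length (nt, log scale) for core genes in het 1 (left) and control 2 (right), with bars for the median of other coding genes in the same length range. Most core genes lie above the bars in both panels, and Rpl4 lies near 0 in both.

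The excess was also set beside the pyrimidine run at the start. The 15 core genes with a run of at least 8 bases had a median excess of 0.41 in het 1 and 0.73 in control 2, and the 33 with a shorter run had medians of 0.44 and 0.79. The runs come from annotated starts and can lie beside the first base, so this split does not separate TOP mRNAs from others. Whether the excess differs between TOP mRNAs and others was not tested. When a length and GC trend was removed from each library, the member medians were 0.25 in het 1 and 0.03 in het 2. They were -0.15, 0.49, -0.26 and -0.07 in controls 1 to 4, and the order of the 6 libraries kept het 1 and control 2 at the top. After this removal the medians over all genes were 0.07 in het 1 and 0.09 in het 2, against -0.01, 0.08, -0.05 and -0.03 in controls. In het 2 the member median was thus below that of all genes.

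Relative to the median of the core genes in the same library, few members stood apart by genotype. Both hets were above every control for 2 of 84 members, Rpl13a among them, where 2.1% of all genes were. Both were below every control for 3, Rpl12, Rpl22l1 and Rpl38, where 5.45% of all genes were. The core median was subtracted from all genes alike, also from those that do not share its shifts between libraries. These shares are therefore not a like background for the members. Without the subtraction, the shares of all genes were 6.17% above and 8.14% below. Relative to the core median, Rpl13a stood at 0.83 and 0.83 in hets, against 0.64, 0.68, 0.66 and 0.65 in controls (log2 scale). Rpl38, which in mouse embryos is needed for translation of certain Hox mRNAs, stood at -2.13 and -2.03 in hets, against -2.02 to -1.85 in controls.

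Paralogs of ribosomal proteins can replace their parent protein in the ribosome in particular tissues. Rpl22l1 had 36.6 and 21.7 CPM in hets, against 26.3, 70.8, 33.0 and 33.4 CPM in controls. Het 2 was below every control and het 1 was within their range, and control 2 was the highest (log2 fold change -0.49 ± 0.42, SE; edgeR adjusted p = 0.987). Its parent Rpl22 had 331 and 258 CPM in hets, against 265, 428, 243 and 270 CPM in controls. As a percentage of Rpl22, Rpl22l1 was at 11.1% and 8.42% in hets, against 9.92%, 16.5%, 13.6% and 12.4% in controls. The log2 ratio differed by -0.41 (het minus control; exact permutation test over 15 splits, two-sided p = 0.267, adjusted over 4 pairs p = 0.8). The smallest p that 2 against 4 samples can give is 0.0667, so no pair can pass 0.05. The difference was -0.60 without het 1 and -0.22 without het 2.

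Rpl7l1 had 120 and 111 CPM in hets, against 120, 143, 120 and 132 CPM in controls, and was 12.7% and 14.0% of Rpl7 in hets, against 16.9%, 12.6%, 17.4% and 17.5% in controls. Control 2 was the lowest control for this ratio and the difference was -0.26 (exact permutation p = 0.4, adjusted p = 0.8). Rps27l, a p53 target that is a close copy of Rps27, had 62.8 and 40.1 CPM in hets, against 37.2, 81.3, 36.4 and 36.7 CPM in controls. It stood at 12.4% and 11.52% of Rps27 in hets, against 11.9%, 12.8%, 13.1% and 9.95% in controls, with a difference of 0.01 on the log2 scale (exact permutation p = 1). Rpl36al stood at 24.7% and 24.7% of Rpl36a in hets, against 25.2%, 22.5%, 23.8% and 26.5% in controls, with a difference of 0.01 (exact permutation p = 0.867). Reads of such similar genes could be split differently by another counting rule. Rpl3l had 0 reads in both hets, against 0, 3, 9 and 0 reads in controls, and Rpl10l and Rpl39l had 0 reads in all 6 libraries. None of these 3 is a row of the normalized table.

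**Figure D5:**
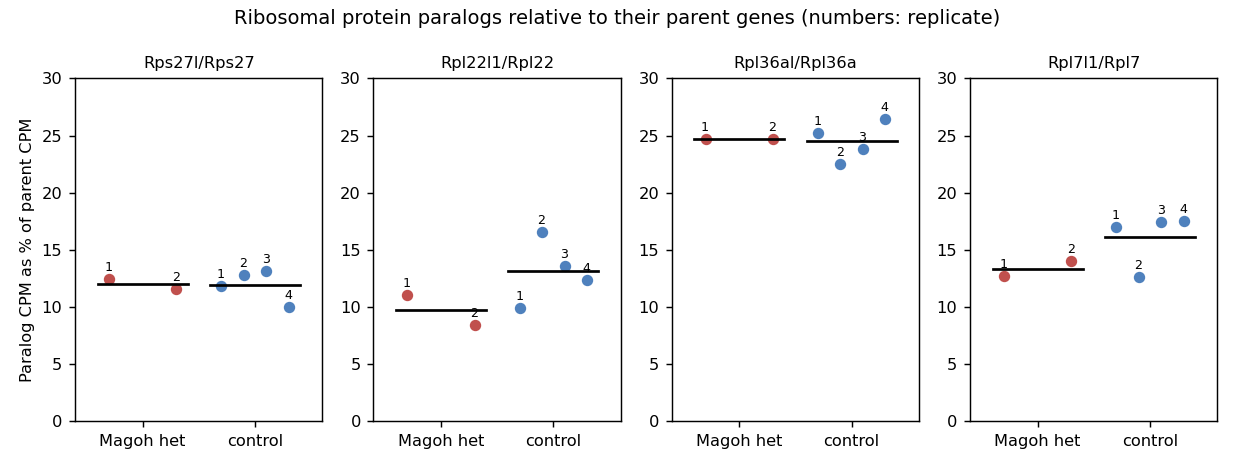
Level of each paralog as a percentage of its parent gene (CPM over CPM) in hets, left, and controls, right, with replicate numbers and a bar for the group mean. Groups overlap in all 4 pairs; Rpl22l1 is at 11.1% and 8.42% in hets, against 9.92% to 16.5% in controls.

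The 3 pseudogene copies had low levels, with at most 5.59 CPM, and Rps12l1 had 0.283 and 0.122 CPM in hets, against 0.241, 0.306, 0.133 and 0.134 CPM in controls. Beside the members, 222 rows are ribosomal protein pseudogenes by name (a ribosomal protein symbol with -ps), of which 165 had reads and 73 had at least 100. Pseudogenes with other kinds of names are not among these rows. The 222 rows held 0.688 and 0.742 counts per 100 member counts in hets, against 0.755, 0.675, 0.698 and 0.675 in controls, and the groups overlapped.

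Other genes of the translation machinery were compared by lists, with no gene in any list passing the test. Elongation factors had a median log2 fold change of 0.06, with 6 of 8 genes above 0. For 22 other translation genes with TOP mRNAs, 15 lay above 0 and the median was 0.05. Of 30 initiation factors, 19 lay above 0 with a median of 0.02, and Eif4a2, a helicase that opens mRNA leaders, was the single one with an unadjusted p under 0.05. Mitochondrial ribosomal proteins had a median of 0.04, with 49 of 75 above 0. Ribosome biogenesis factors had a median of -0.12, with 13 of 54 above 0, and RNA polymerase I and its cofactors -0.07, with 4 of 14 above 0. Both hets were below every control for 7 of the 54 biogenesis factors, where 8.14% of all genes were, and above every control for 1, where 6.17% of all genes were. Relative to the control mean, the median level of the other TOP-mRNA genes was 0.22 in het 1 and -0.06 in het 2, against -0.16, 0.36, -0.19 and -0.03 in controls 1 to 4 (log2 scale). Elongation factors were at 0.21 in het 1 and -0.04 in het 2, against -0.15, 0.34, -0.20 and -0.02 in controls. Initiation factors were at 0.11 in het 1 and 0.05 in het 2, against -0.13, 0.31, -0.11 and -0.05 in controls. In these 3 lists, as in the members, control 2 was the highest library and het 1 the second. Mitochondrial ribosomal proteins were at 0.13 in het 1 and -0.06 in het 2, against -0.13, 0.34, -0.16 and -0.05 in controls. There too, control 2 was the highest library and het 1 the second. Biogenesis factors were at -0.12 in het 1 and -0.05 in het 2, against -0.01, -0.06, 0.02 and 0.05 in controls, and RNA polymerase I and its cofactors at -0.03 in het 1 and -0.08 in het 2, against -0.07, 0.13, -0.02 and 0.03 in controls. The 9 genes listed as the Myc family had a median log2 fold change of 0.17, with 6 above 0. Their median level was -0.0017 in het 1 and 0.43 in het 2, against 0.14, -0.12, 0.02 and -0.03 in controls.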

How the data were processed

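RNA was sequenced from 6 libraries of sorted tdTomato-positive cells of embryonic day 11.5. The authors deposited raw read counts per gene and a table of normalized counts (a signal, counts divided by a factor per library; the raw counts over the deposited normalized values gave 1 factor per library). Trim Galore, STAR, HTSeq and the build mm10 are named per the submitters' processing notes; tool versions, the annotation and strandedness are not stated there or in the labels, so overlapping genes may share reads. Members and lists were chosen with earlier results of these data known. Genes were filtered with filterByExpr, scaled by TMM and tested with edgeR 4.0.16 (quasi-likelihood, robust) in R 4.3.3 over all 16495 genes with Benjamini-Hochberg adjustment at 0.05. DESeq2 1.42.0 and limma 3.58.1 were alternatives, as were other scalings, filters and left-out libraries. Log2 levels of single libraries used 0.5 CPM as pseudocount. Lengths, positions and biotypes came from GENCODE M21 (GRCm38), which matched 36639 identifiers. Scripts were tested on simulated data. Named members were the paralog pairs, stalk, p53, X-linked and fixed genes, the smallest p in each direction, and the extremes of level and spread; some of them are not reported here. Total counts were 41951182 and 49189360 in hets, against 37862061, 37429290, 44198702 and 43809859 in controls. A count of 3 equals 0.0610 to 0.0802 CPM. PCR duplicates are not separable, so intervals cover counting error only.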

Additional observations from a re-analysis of the deposited data

Results flagged for a closer look

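Among named results, control 2 stood apart from the other 3 controls by Dixon's ratio (the gap to the nearest sample over the group's range, past its 95% critical value). The ratio was 0.854 for Rpl22, 0.841 for Rpl22l1, 0.894 for Rpl36a, 0.846 for Rpl41, 0.860 for Rpl7, 0.842 for Rps12 and 0.981 for Rps27l, each with control 2 the highest. Rpl41 had 835 and 638 CPM in hets, against 601, 1053, 650 and 670 CPM in controls. The log2 ratio of Rpl7l1 to Rpl7 gave 0.897, with control 2 the lowest at -2.99. Over all members, 13 of 84 (15.5%) passed. The share of all genes that pass was not computed, so this count cannot be called particular to the members. Control 2 was the highest of the 6 libraries for 27.2% of all genes. Chance flags about 1 in 20 groups, and members move together across libraries, so these are not separate events.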

How the results depend on the processing

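No member passed the test under any alternative run. Over all genes, 0 were called by edgeR, against 61 by DESeq2 and 11 when the code number entered as a replicate block. The groups share a single number (70, in het 2 and control 1), and what it marks is not stated. The fit with blocks therefore takes the genotype effect from het 2 against control 1 alone, and its calls are not comparable with the others. The median member log2 fold change was 0.03 to 0.12 over the alternatives that kept every library. It was -0.15 (without het 1) to 0.28 (without control 2) over those that left out 1. The value of 0.12 came with the length and GC trend removed. In that run the median over all genes was 0.08, against -0.03 in the main fit. The difference in share of counts was -0.415 (without het 1) to 0.933 (without het 2) percentage points. Leaving out 1 library gave log2 ratio differences of -0.07 to 0.06 for Rps27l, -0.60 to -0.22 for Rpl22l1, -0.03 to 0.05 for Rpl36al and -0.38 to -0.19 for Rpl7l1. Of 36 named members, up to 7 had the other sign under alternatives that kept every library, and 21 without het 1. The cause was not tested. With 2 hets, all member changes but that of Rpl22l1 lie within 1 standard error.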
